A study of Homo sapiens with 6 samples.

Results

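The exon segments with identical edges are the 468 intervals that stand with the same chromosome, start, end and strand in the mRNA peak lists of both RIP experiments of the series. They were selected on their deposited positions, by an exact match of these 4 fields, and make up 2.25% of the 20772 distinct intervals of both lists. The match took 4.27% of the 10960 RIP-1 intervals (95% CI 3.91 to 4.66) and 4.55% of the 10280 RIP-2 intervals (95% CI 4.17 to 4.97). RNA immunoprecipitation and sequencing (RIP-seq) was used to recover RNA held by SF3B4 in wild-type HEK293T cells, a human line of embryonic kidney origin that expresses the large T antigen of SV40. The 6 libraries formed 3 groups of 2, anti-SF3B4, IgG and input, with 1 of each in either experiment; IgG is the non-specific antibody and input the RNA before immunoprecipitation. The deposited lists hold 1 peak call per experiment and no read counts, so the depth is unknown, no value of a list carries an error across replicates, and the part of the IgG and input libraries in the calls is not stated. Per the design text, the experiment was repeated in the same way and both were set against each other to remove non-specific signal.

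SF3B4 belongs to SF3b, a complex within the U2 snRNP (a small nuclear particle of RNA and protein) that grips the branch site of an intron when an exon is about to be joined to the one before it. Exons are recognised in vertebrates largely across their own length, through the 3′ splice site at their upstream edge and the 5′ splice site at their downstream edge, and a mature mRNA keeps only the exons. METTL16, named beside SF3B4 in the title of the series, is a methyltransferase that writes N6-methyladenosine on a small set of RNAs. Whether an edge is an annotated exon edge was not analysed here. The positions are those of the genome build hg19, the gene table at hand is for a later build, and the segments are named by position, without genes or sequence.

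The edges chose these segments, and their lengths, positions and scores come from the same peak calls. All values below are therefore descriptions without a test. Shares are given with 95% Wilson intervals, which cover counting error alone and take neighbouring intervals as unrelated. The intervals of a list that lack an identical partner are called the remaining segments, and numbered 10492 for RIP-1 and 9812 for RIP-2.

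Over all overlapping pairs, identical edges were the most frequent outcome. On the same strand, 710 pairs of a RIP-1 and a RIP-2 segment overlapped by at least 1 bp, and 468 of them (65.9%) had both edges in common. In 85 pairs only the upstream, 5′ edge in the direction of transcription was common, and in 68 pairs only the downstream, 3′ edge. In the other 89 pairs neither edge was. The identical segments were much the shortest of these classes, with a median of 144 bp. Pairs with only the 5′ edge in common had RIP-1 and RIP-2 medians of 536 and 498 bp, those with only the 3′ edge in common 293 and 292 bp, and those with no common edge 1013 and 801 bp. Most segments had no overlapping partner at all, which held for 10257 RIP-1 (93.6%) and 9570 RIP-2 segments (93.1%).

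The match was rarely missed by a few bases. Of the 242 overlapping pairs without identity, 11 differed by 1 to 5 bp at their worse edge, and the median of that difference was 200.5 bp (quartiles 61.0 and 520.5). All 11 kept 1 edge exactly. In 8 of them the differing edge was the 5′ one and in 3 the 3′ one. A difference of 3 bp was seen in 4 pairs, always at the 5′ edge, on chromosome 1 (plus strand, ending at 207642244), chromosome 6 (plus strand, ending at 160828227), chromosome 7 (plus strand, ending at 96747209) and chromosome 18 (minus strand, starting at 10696071). A difference of 6 bp was seen in 3 pairs, again only at the 5′ edge. Differences of 7, 8 and 10 bp were seen in 1 pair each, at the 3′ edge for 7 bp and at the 5′ edge for 8 and 10 bp. The pairs nearest to the limit missed it by 1 bp, both on the minus strand. On chromosome 1 the segment from 149459424 ended at 149459548 in RIP-1 but at 149459549 in RIP-2, and on chromosome 16 the segment up to 30237150 began at 30236456 in RIP-1 but at 30236455 in RIP-2.

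Pairs with 1 common edge ranged from slivers to long stretches. The 153 such pairs shared between 2 and 2009 bp, with a median of 325 bp, and the other edge differed by a median of 96.0 bp (quartiles 28.0 and 328). The RIP-1 segment was the longer one in 90 of them. The shortest overlaps were 2 bp (chromosome 1, from 10186851), 3 bp (chromosome 4, up to 96046272) and 4 bp (chromosome 10, from 114724314), all on the plus strand, with the short segment in RIP-2. The longest overlaps were 2009 bp (chromosome 7, from 99169867), 1986 bp (chromosome 6, up to 109690220) and 1812 bp (chromosome 3, up to 195779055), and in these 3 the 5′ edge was the common one.

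The identical segments were mostly short. Their median was 144 bp (95% interval of the median 138 to 154), against 224 bp in the remaining RIP-1 segments (218 to 231) and 162 bp in the remaining RIP-2 segments (158 to 165). The middle of the distribution was narrow, with quartiles of 107 and 198 bp, against 137 and 614 bp in the remaining RIP-1 and 104 and 336 bp in the remaining RIP-2 segments. The lower quartile was thus near that of RIP-2, while the upper quartile was below both lists. Together the identical segments covered 91.8 kb, against 5213 kb in the remaining RIP-1 and 2894 kb in the remaining RIP-2 segments.

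**Figure D1:**
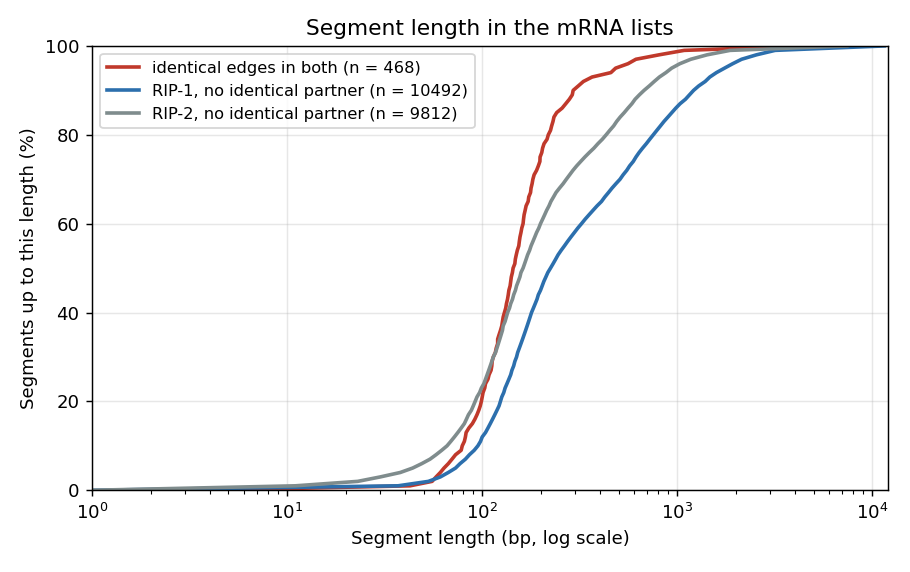
Cumulative share of segments (vertical axis, percent) up to a given length (horizontal axis, bp, log scale) for the 468 identical segments and for the remaining segments of RIP-1 and RIP-2. The curve of the identical segments is the steepest and passes 75% at 198 bp, against 614 bp for RIP-1 and 336 bp for RIP-2.

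Segments of 80 to 199 bp made up 65.0% of the identical set (304 of 468, 95% CI 60.5 to 69.1), 38.7% of the remaining RIP-1 segments (95% CI 37.8 to 39.6) and 45.5% of the remaining RIP-2 segments (95% CI 44.6 to 46.5). The single most filled class was 120 to 159 bp, with 123 identical segments. At the long end, 23 identical segments reached 500 bp (4.91%, 95% CI 3.30 to 7.27), against 30.4% of the remaining RIP-1 segments (95% CI 29.6 to 31.3) and 16.4% of the remaining RIP-2 segments (95% CI 15.7 to 17.2). Under 80 bp the identical set held 49 segments, or 10.5% (95% CI 8.01 to 13.6), which lay between the 6.38% of the remaining RIP-1 and the 14.6% of the remaining RIP-2 segments.

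Most identical segments were shorter than any whole peak in the lists that the authors named NotExon, here called non-exon peaks, which come from the same calls. The shortest non-exon peak of RIP-1 measured 206 bp and that of RIP-2 200 bp. Below these lengths lay 361 of the 468 identical segments for RIP-1 (77.1%, 95% CI 73.1 to 80.7) and 353 for RIP-2 (75.4%, 95% CI 71.3 to 79.1). The remaining segments were below the same lengths in 46.6% of cases for RIP-1 (95% CI 45.6 to 47.5) and 60.1% for RIP-2 (95% CI 59.1 to 61.1). Each peak name stood on only 1 line of an mRNA list, so the number of names equalled that of lines and a call contributed no more than 1 segment to these lists per named peak.

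The share of segments with an identical partner differed by length. Of all RIP-1 segments of 80 to 199 bp, 6.97% had one (304 of 4363, 95% CI 6.25 to 7.76), and of those of 500 bp and over 0.715% (23 of 3217, 95% CI 0.477 to 1.07). For RIP-2 these shares were 6.37% (304 of 4772, 95% CI 5.71 to 7.10) and 1.41% (23 of 1636, 95% CI 0.939 to 2.10). Under 80 bp the lists parted, with 6.82% of 718 RIP-1 segments (95% CI 5.20 to 8.91) and 3.31% of 1480 RIP-2 segments (95% CI 2.51 to 4.35), and RIP-2 holds more such short segments in all.

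Among pairs that overlapped at all, the share also differed by length. Both edges agreed in 353 of the 397 overlapping pairs whose RIP-1 segment was under 200 bp (88.9%, 95% CI 85.4 to 91.6). Between 160 and 199 bp the share was 92.8% (77 of 83, 95% CI 85.1 to 96.6). It was 78.7% between 200 and 299 bp (95% CI 69.0 to 85.9), 38.6% between 300 and 499 bp (95% CI 27.1 to 51.6), 18.2% between 500 and 999 bp (95% CI 11.5 to 27.5) and 8.86% from 1000 bp (7 of 79, 95% CI 4.36 to 17.2). Classes set by the RIP-2 length gave a like decline, from 95.1% at 160 to 199 bp (95% CI 88.0 to 98.1) to 14.0% from 1000 bp (7 of 50, 95% CI 6.95 to 26.2). The shortest class did not follow this decline. Under 80 bp the share was 79.0% by RIP-1 length (49 of 62, 95% CI 67.4 to 87.3) and 72.1% by RIP-2 length (49 of 68, 95% CI 60.4 to 81.3). Below 200 bp, then, a segment that met its counterpart mostly had the same outline, and from 300 bp it mostly did not.

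**Figure D2:**
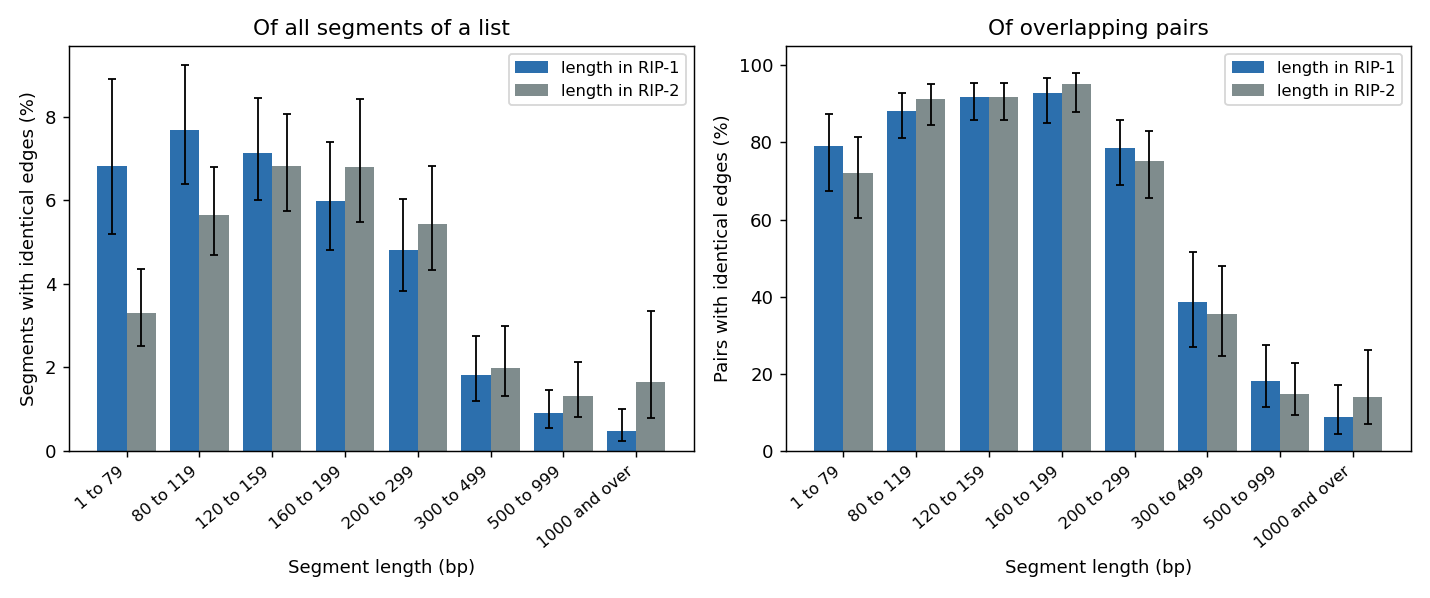
Share of segments with identical edges (percent) by class of segment length (bp), of all segments of a list (left) and of pairs that overlap by at least 1 bp (right); blue bars use the RIP-1 length, grey bars the RIP-2 length, and black lines are 95% Wilson intervals. Right, the RIP-1 bars stand at 92.8% for 160 to 199 bp and at 8.86% from 1000 bp.

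Coding exons inside a gene often have a length that is a multiple of 3, which keeps the reading frame when such an exon is skipped or joined. Taken as end minus start, the length was divisible by 3 in 179 of the 468 identical segments (38.2%, 95% CI 34.0 to 42.7), while remainders of 1 and 2 held 144 and 145 segments. The remaining segments showed nearly the same split, where 37.1% of RIP-1 lengths (95% CI 36.2 to 38.0) and 36.9% of RIP-2 lengths (95% CI 36.0 to 37.9) were divisible by 3. The interval of the identical segments held both of these shares. The excess of multiples of 3 appeared in the remaining segments of 200 bp and over as well, though smaller, at 35.3% for RIP-1 (95% CI 34.1 to 36.5) and 35.1% for RIP-2 (95% CI 33.6 to 36.6). Counted with both ends included, 31.0% of the identical lengths were divisible by 3. None of the 21240 lines of both mRNA lists had an end equal to its start and 11 had an end 1 above it, which bears on how positions are counted, a point the files do not state.

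The 5 longest identical segments show that length did not bar an exact match. The longest measured 4755 bp, on chromosome 1, minus strand, from 197069560 to 197074315, and scored 57.4 in RIP-1 but 311 in RIP-2. Here and below, the score is the authors' deposited peak score, which by its range follows the negative log10 of the peak's p-value, multiplied by 10, and starts at 50. Whether it was computed over the segment's own length or over a longer peak was not analysed. A second identical segment, of 193 bp, lay 10042 bp away on the same strand, from 197059325 to 197059518, scoring 76.2 and 71.3. The next longest measured 1628 bp (chromosome 1 from 113212613, scores 53.3 in RIP-1 and 69.5 in RIP-2), 1241 bp (chromosome 19 from 45322838, scores 109.7 and 86.6), 1131 bp (chromosome 14 from 58830887, scores 111 and 64.3) and 1116 bp (chromosome 2 from 217069910, scores 60.0 and 93.9), all on the plus strand.

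The 5 shortest segments measured 4 to 42 bp. The 4 bp segment on the plus strand of chromosome 1 from 144213125 to 144213129 scored 64.4 in RIP-1 but 353 in RIP-2. The nearest identical segment, 52538 bp away on the same strand, measured 177 bp (from 144160410 to 144160587) and also scored far higher in RIP-2, at 381, against 59.9 in RIP-1. The other 4 of the shortest measured 28 bp (chromosome 10 from 101510125, plus strand), 29 bp (chromosome 5 from 110840712, minus strand), 33 bp (chromosome 10 from 75587846, minus strand) and 42 bp (chromosome 17 from 78234659, plus strand). Their lower scores of the 2 experiments were 50.5, 64.7, 54.5 and 73.0, so the first of them barely passed the floor of 50 in RIP-1.

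The strands were used about evenly. The plus strand carried 245 identical segments and the minus strand 223, or 52.4% on plus (95% CI 47.8 to 56.8), against 51.1% of the remaining RIP-1 segments (95% CI 50.2 to 52.1) and 51.8% of the remaining RIP-2 segments (95% CI 50.8 to 52.8). Median lengths were 140 bp on the plus and 150 bp on the minus strand. No further match appeared when the strand was ignored, so no interval stood on one strand in RIP-1 and on the other in RIP-2.

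Identical segments were found on every autosome and on chromosome X, and none on chromosome Y. Chromosome 1 held the most, 54, followed by chromosome 2 with 38, chromosome 6 with 33 and chromosome 3 with 32. The fewest were on chromosome 22 with 4, and on chromosomes 19 and 21 with 5 each. Relative to the lists, chromosome 8 stood highest, with 26 identical segments or 7.95% of its RIP-1 segments (95% CI 5.48 to 11.4) and 7.37% of its RIP-2 segments (95% CI 5.08 to 10.6). Chromosome 19 stood lowest in both lists, with 0.752% of 665 RIP-1 segments (95% CI 0.322 to 1.75) and 1.68% of 298 RIP-2 segments (95% CI 0.719 to 3.87). Chromosome 22 came next in RIP-1, with 1.48% of 271 segments (95% CI 0.575 to 3.73). These shares stand beside 4.27% and 4.55% over all chromosomes of RIP-1 and RIP-2.

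**Figure D3:**
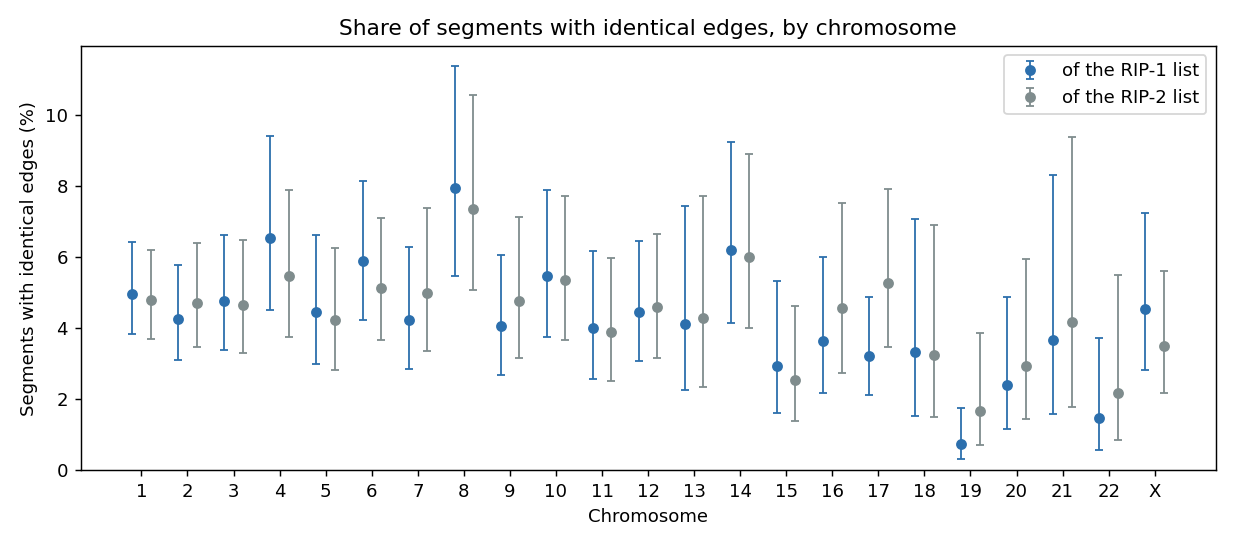
Percent of the segments of each mRNA list that had identical edges in the other list (vertical axis), by chromosome (horizontal axis), for RIP-1 (blue) and RIP-2 (grey), with 95% Wilson intervals; chromosome Y, without identical segments, is left out. Chromosome 8 is highest, at 7.95% and 7.37%, and chromosome 19 lowest, at 0.752% and 1.68%.

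The 5 identical segments of chromosome 19, a chromosome rich in genes, lay unevenly along it, with the widest gap between the first and the second. They began at 4318342, 33119627, 44840775, 45322838 and 58341661, with RIP-1 scores between 51.5 and 142 and RIP-2 scores between 53.9 and 150. Their median length of 160 bp was close to that of the whole set. All 5 segments of chromosome 21 lay on its plus strand, and on chromosome 10 the minus strand carried 20 of 26. The strand split of all listed segments on these chromosomes was not computed, so these counts stand without a background. The median length by chromosome ranged from 112 bp on chromosome 5 to 178.5 bp on chromosome 13, which had 10 segments.

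Identical segments were mostly far from each other, though nearer to each other than the remaining segments were to them. The median gap to the nearest other identical segment on the same strand was 2504 kb (quartiles 92.1 and 8370 kb), and 1 segment, on chromosome 22, had no other on its strand. Within 10 kb of another one lay 34 of 467 (7.28%), within 50 kb 98 (21.0%) and within 100 kb 120 (25.7%). From the remaining segments, the median gap to the nearest identical one was 4009 kb in RIP-1 and 3740 kb in RIP-2. Within 10 kb of an identical segment lay 1.43% of the remaining RIP-1 and 3.12% of the remaining RIP-2 segments. Within 50 kb these shares were 4.80% and 8.33%, and the differences were not tested. Segments that overlapped without identity were seldom beside an identical one. Of 231 such RIP-1 segments with an identical one on their chromosome and strand, 2 had it within 10 kb (0.866%) and 17 within 50 kb (7.36%), against 1.44% and 4.74% of the RIP-1 segments without overlap.

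Their spacing to the other segments of each list differed between the experiments. In RIP-1 the nearest other segment on the same strand lay at a median of 20.4 kb from an identical segment and of 16.8 kb from a remaining one. Within 10 kb of another RIP-1 segment were 32.3% of the identical and 40.4% of the remaining segments. In RIP-2 the order was the opposite, with medians of 12.1 kb for identical and 25.1 kb for remaining segments and 46.6% against 34.9% within 10 kb. Another RIP-1 segment lay within 1 kb of 1.71% of identical and 6.60% of remaining segments. In RIP-2 these shares were 5.13% and 5.66%. Within 50 kb the RIP-1 shares were close, at 68.6% of identical and 67.9% of remaining segments, while in RIP-2 they were 74.6% and 61.5%. The median gap of identical segments was thus above that of the rest of the RIP-1 list and below that of the rest of the RIP-2 list. In RIP-1 the difference was seen only at short range, and none of these differences was tested.

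**Figure D4:**
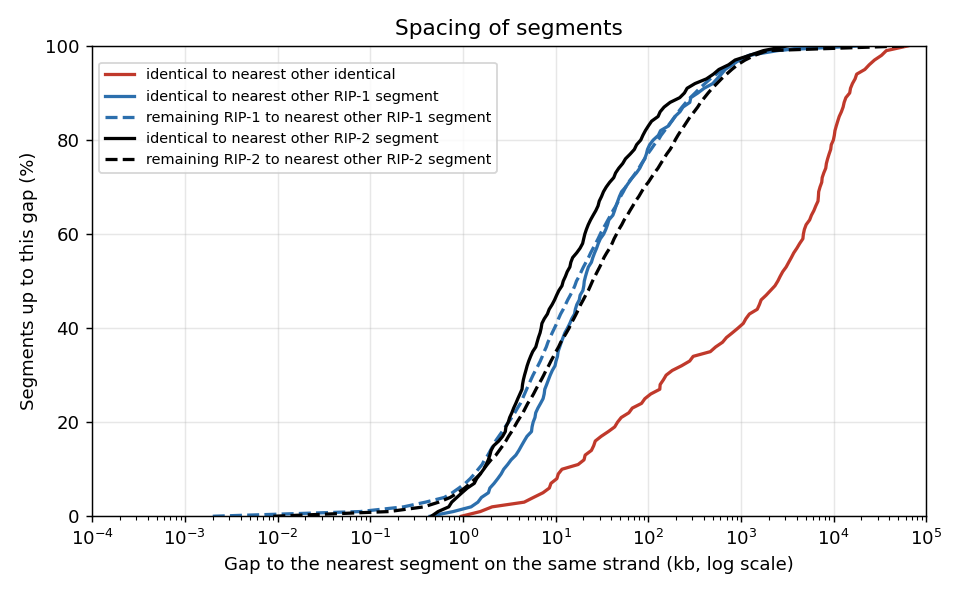
Cumulative share of segments (vertical axis, percent) by the gap to the nearest segment on the same strand (horizontal axis, kb, log scale), from identical segments to each other (red), and from identical (solid) and remaining segments (dashed) to the nearest other segment of RIP-1 (blue) and RIP-2 (black). The red curve reaches 25.7% at 100 kb and its median is 2504 kb; for RIP-2 the solid line lies left of the dashed one, with medians of 12.1 and 25.1 kb.

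The 34 near segments formed 17 pairs and no longer run at a limit of 10 kb. In 15 of the 17 pairs both segments came from consecutive peak numbers of the RIP-1 call, so that no other peak of either kind of list lay between them, and in 8 of 17 this held for the RIP-2 call. The RIP-2 call holds more peaks, 144374 against 36757 in RIP-1. How often remaining segments this close had consecutive numbers was not computed, so these counts stand without a background. The closest pair was 963 bp apart on the plus strand of chromosome 7, with segments of 233 and 120 bp. The next, 1335 bp apart, was on the plus strand of chromosome 21 from 47863722 to 47865682, with segments of 139 and 486 bp. The widest pairs at this limit spanned 9.20 kb (chromosome 10, minus strand, from 27317780), 9.15 kb (chromosome 2, plus strand, from 32693504) and 8.96 kb (chromosome 4, minus strand, from 104098055). In the last of these a segment of 148 bp scored 53.5 in RIP-1 but 391 in RIP-2, while its neighbour of 52 bp scored 52.8 and 65.2.

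At a limit of 50 kb, 98 segments fell into 46 runs, of which 41 held 2 segments, 4 held 3 and 1 held 4. The run of 4 lay on the plus strand of chromosome 7 from 91674321 to 91706321, a span of 32.0 kb. Its segments measured 206, 233, 120 and 153 bp, their RIP-1 scores were 59.6, 94.5, 65.5 and 76.3, and their RIP-2 scores 117, 64.3, 82.0 and 152. In the same span the RIP-1 list had 5 segments on this strand and the RIP-2 list 8, of which 4 were identical in each. The span was chosen by its identical segments and begins and ends with one. These shares are therefore fixed in part by that choice and cannot be set against the 4.27% and 4.55% of the whole lists. The score order within the run was not shared, since the segment of 233 bp was the highest of the 4 in RIP-1 and the lowest in RIP-2.

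The 4 runs of 3 lay on 3 chromosomes. On chromosome 16 one spanned 53.6 kb on the plus strand from 53243393, with segments of 332, 180 and 111 bp, and another 52.8 kb on the minus strand from 18830823, with segments of 153, 141 and 162 bp. On chromosome 2 a run on the plus strand from 32658711 spanned 43.9 kb, with segments of 161, 347 and 216 bp. On chromosome 10 a run on the minus strand from 27306430 spanned 20.6 kb, with segments of 291, 94 and 184 bp. In 3 of these 4 runs, all but that of chromosome 2, the RIP-1 list had no segment on the strand besides the 3 identical ones, while the RIP-2 list had 5 or 6 in all. These spans too were chosen by their identical segments, so a high matched share follows in part from that choice.

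The median score of identical segments was below that of the remaining segments in RIP-1 and close to it in RIP-2. The RIP-1 median was 68.5 (95% interval of the median 66.7 to 71.5), against 80.8 in the remaining segments (79.6 to 81.6). In RIP-2 it was 81.2 (77.6 to 85.9), against 79.5 in the remaining segments (78.6 to 80.7). The RIP-1 gap was smaller when only segments of at most 250 bp were set against each other, with medians of 68.4 for 400 identical and 75.4 for 5624 remaining segments. In RIP-2 these medians were 79.6 and 78.7. The highest RIP-1 score of an identical segment was 297, which 737 remaining segments exceeded, and the highest RIP-2 score was 798, which 14 exceeded. The 95th percentile was 157 in the identical set and 412 in the remaining segments of RIP-1, against 236 and 209 in RIP-2.

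The same edges did not come with the same score. RIP-2 gave the higher score for 280 of the 468 segments and RIP-1 for 188, and the ratio of RIP-2 to RIP-1 had a median of 1.12 (quartiles 0.845 and 1.67). In 259 segments (55.3%) the scores were within 1.5-fold of each other. A score of at least 100 was reached in both experiments by 32 segments, in RIP-2 only by 126, in RIP-1 only by 60 and in neither by 250. For scale, a RIP-1 score of 99.99 ranked 3795 of all 10960 segments, and a RIP-2 score of 100.14 ranked 3316 of all 10280. Whether the count of 32 exceeds what the separate counts would give was not tested. Over the 468 segments, the rank correlation of the scores (Spearman rho) was 0.0620 and the linear correlation of their log10 values (Pearson r) 0.0545, given as a description of 1 call from each experiment, whose points share cell line and protocol. Every score had to pass the floor of 50 in its list, which limits what these correlations can show. The score quartiles of the identical segments were 58.5 and 91.5 in RIP-1 and 63.6 and 114.7 in RIP-2. No correlation was computed for the overlapping pairs without identity. Score and length had a rho of 0.0561 over the identical segments and of 0.211 over the whole list in the RIP-1 call. In the RIP-2 call these values were 0.115 and 0.0625, so the order of identical segments and whole list was the opposite.

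**Figure D5:**
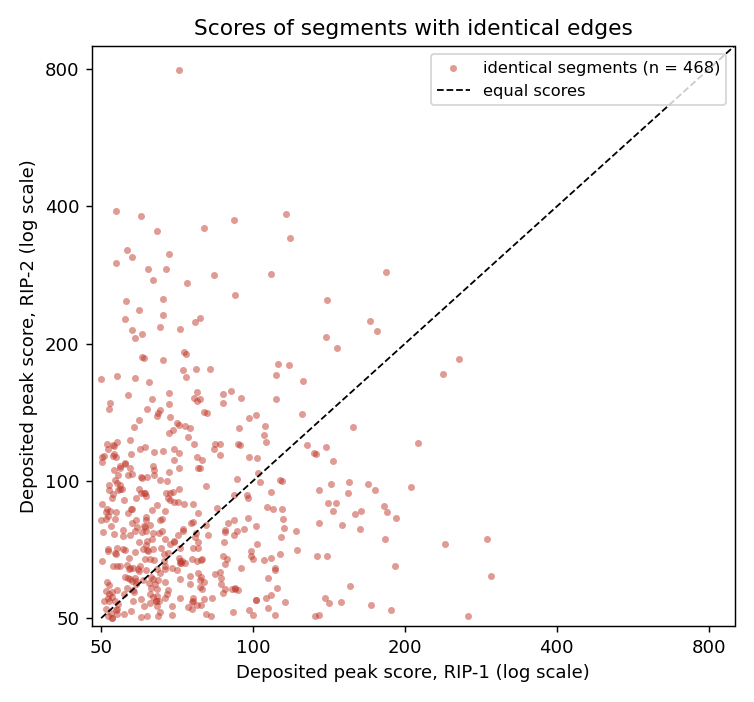
Deposited peak score in RIP-1 (horizontal axis, log scale) and RIP-2 (vertical axis, log scale) of the 468 identical segments, 1 point each; the dashed line marks equal scores. Of the points, 280 lie above the line, and the cloud has no visible slope (Spearman rho 0.0620).

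The segments were also ranked by the lower of their RIP-1 and RIP-2 scores. The top 20 lay on 13 chromosomes, and 11 of them on the plus strand. Their RIP-1 scores were 112 to 256 and their RIP-2 scores 114 to 384, and 12 scored higher in RIP-2. Their ranks by score ran between 904 and 3175 among the 10960 RIP-1 segments, and between 65 and 2551 among the 10280 of RIP-2. They measured 57 to 852 bp, with a median of 164.5 bp, and 12 were under 200 bp. The first was a plus-strand segment of 150 bp on chromosome X, from 24766427, which scored 256 in RIP-1 but 185 in RIP-2. The second, of 204 bp on the minus strand of chromosome 8 from 124382060, scored 183 and 287, and the third, of 181 bp on the minus strand of chromosome 10 from 126847203, scored 176 and 213. In these 3 both calls placed the segment well above the median of its list, which follows from ranking by the lower score.

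The fourth, 240 bp on the plus strand of chromosome 10 from 70530962 scoring 238 in RIP-1 but 171 in RIP-2, was also 1 of a close pair. Its neighbour, 1542 bp further, measured 112 bp (from 70532744 to 70532856) and scored 140 and 68.4. The fifth was only 66 bp long, on the minus strand of chromosome 5 from 131533898, with scores of 170 and 224. The shortest of the 20, with 57 bp on the plus strand of chromosome 17 from 28499559, had nearly equal scores of 128 and 120. The longest, with 852 bp on the minus strand of chromosome 1 from 68947728, scored 147 and 196. Segments under 80 bp and over 500 bp thus both stood among those with high peak scores in both experiments. No whole non-exon peak was under 200 bp, so the score of a shorter segment need not describe that interval alone.

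The other 13 of the 20 were mostly of middle length. On chromosome 1 they included 120 bp from 203787697 (scores 140 and 249.9) and 69 bp from 224868659 (133 and 114). On chromosome 9 they were 155 bp from 111640274 (139.8 and 207) and 226 bp from 123930373 (119 and 340). On chromosome 7 they were 167 bp from 76796974 (158 and 132) and 147 bp from 16736539 (118 and 179.9). On chromosome 12 they were 79 bp from 122013685 (139 and 119) and 572 bp from 122861935 (112 and 180.4). The others were 162 bp on chromosome 11 from 107966256 (126 and 166), 363 bp on chromosome 14 from 92480558 (125 and 139.9), 614 bp on chromosome 4 from 68379791 (212 and 121), 572 bp on chromosome 2 from 58386483 (116 and 384) and 134 bp on chromosome 8 from 94772087 (132 and 115). Within each of these brackets the RIP-1 score comes before that of RIP-2.

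The most unequal segments reached larger ratios in favour of RIP-2. The minus-strand segment of 149 bp on chromosome 8, from 48772171 to 48772320, scored 798 in RIP-2, where it ranked 15 of 10280, and 71.4 in RIP-1, where it ranked 6484 of 10960, a ratio of 11.2. It was the highest RIP-2 score of any identical segment. The next ratios of RIP-2 to RIP-1 were 7.31 (chromosome 4, from 104098055), 6.37 (chromosome 1, from 144160410), 5.70 (chromosome 8, from 17804694) and 5.61 (chromosome 16, from 55890288), with RIP-1 scores of at most 59.9 in these 4. In favour of RIP-1, the largest ratio was 5.26, for 133 bp on the plus strand of chromosome 4 from 20544116, which scored 267 in RIP-1 but 50.6 in RIP-2. The next ratios of RIP-1 to RIP-2 were 4.79 (chromosome 8, from 95751872, the highest RIP-1 score of the set), 3.90 (chromosome 1, from 186328930), 3.60 (chromosome 2, from 136380223) and 3.30 (chromosome 1, from 97243140). These 10 segments, the 5 largest ratios in each direction, were all under 200 bp. The next largest RIP-2 to RIP-1 ratios, 5.49 and 5.41, belonged to the 4 bp and the 4755 bp segments of chromosome 1.

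The non-exon peaks of the same calls lay about as near to identical as to remaining segments. In RIP-1 the median distance to the nearest non-exon peak was 19.1 kb for identical and 19.6 kb for remaining segments, and 2.99% and 3.57% had one within 1 kb. In RIP-2, whose non-exon list is longer (134094 peaks against 25797 in RIP-1), the medians were 6.05 and 6.85 kb, and 7.69% and 7.58% had one within 1 kb. The nearest non-exon peak of an identical segment was at least 289 bp away for RIP-1 and 235 bp for RIP-2. A non-exon peak within 5 kb was found for 89 identical segments in RIP-1 and for 207 in RIP-2, and for 53 in both. In 20 of these 53 the nearest RIP-1 and RIP-2 non-exon peaks overlapped each other. These joint counts were not computed for remaining segments, so they stand without a background.

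The fold enrichment that the authors deposited for those nearest non-exon peaks was not higher beside identical segments. Its median was 5.87 for identical and 6.22 for remaining segments in RIP-1, and 7.23 for identical and 7.71 for remaining segments in RIP-2. Over all non-exon peaks the RIP-1 median was 6.55 and the RIP-2 median 8.19. By the order of peak numbers along a chromosome, both neighbours of an identical segment in the RIP-1 call were non-exon peaks in 35.5% of cases, against 30.2% for remaining segments. In the RIP-2 call these shares were 50.6% and 57.0%, and both neighbours were mRNA-list peaks for 13.2% of identical and 9.26% of remaining segments. As with the gaps, identical segments were thus flanked by mRNA-list peaks less often than the rest in RIP-1 and more often in RIP-2, differences that were not tested.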

How the data were processed

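RNA was recovered with a RIP kit and depleted of ribosomal RNA before library preparation and 150 bp paired-end sequencing, per the labels' protocols. The submitters' processing notes name cutadapt 1.9.3, HISAT2 2.0.4 and hg19. The deposited files are an mRNA and a NotExon peak list per experiment. The names of the peaks point to MACS; its version, its settings and the control it used are not stated in these sources. The mRNA lists hold position, score and strand, and the NotExon lists position, score, length and fold enrichment over the control of the call, by column order since the files have no header. The deposited score and fold enrichment are used as the authors gave them.

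Segments were matched exactly on chromosome, start, end and strand with pandas 2.3.3 under Python 3.11.15, and matching was tested on simulated lists. Length is end minus start for mRNA-list segments, and end minus start plus 1 for non-exon peaks. Gaps are between nearest edges, on the same strand for mRNA-list segments and regardless of strand for non-exon peaks. Positions are as deposited, uncertain by 1 bp. Intervals are Wilson (SciPy 1.17.1) or, for medians, from order statistics. Each list is 1 call, so no test between groups was made and depth is unknown. The members, the classes and the rule for named segments were chosen with earlier results of these data known. That rule took the 20 segments with the highest lower score, the 5 longest, the 5 shortest, the 5 largest score ratios each way, the widest runs, and the nearest misses. Runs at 50 kb, the chromosome 19 segments and the closest pairs were named after their values were seen. Gene names and sequences need an hg19 annotation or genome and were not used here.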

Additional observations from a re-analysis of the deposited data

How the results depend on the processing

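Of 20 alternative values, 14 stayed within the 95% interval of the value or, for counts, within 1.5 times of it, and 6 moved further. Without regard to strand 468 segments matched, with both edges within 1, 5 or 10 bp 470, 479 and 485, and without chromosomes 1 and 13 404. Taking only the upper 50% of each list by score left 85 identical segments, a smaller number by construction, with a median length of 164 bp. Of at least 100 bp were 371 segments, whose median of 162 bp is higher by construction. Counting both ends in the length made 31.0% divisible by 3. Another identical segment lay within 5 kb for 16 and within 50 kb for 98 segments. Leaving out an experiment was not run, since the match needs both lists. No paired analysis was possible because the lists hold no values per library and each experiment has 1 call. Depth is unknown, so differences in score or list length between RIP-1 and RIP-2 cannot be set against it.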
